A study of Mus musculus with 6 samples.

Results

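The 10 genes described here encode core parts and outputs of the mammalian circadian clock: Arntl, Clock, Per2, Per3, Cry1, Cry2, Nr1d1, Nr1d2, Dbp and Bhlhe40. They were taken by symbol from the 46603 genes listed in each library, and all 10 had counts enough to be among the 15009 genes tested. The data are RNA sequencing counts from mouse embryonic fibroblasts (MEFs), connective-tissue cells of 10.5 day BALB/c embryos. One group, KO, lacks both copies of the beta-actin gene and the other, WT, is wild-type, with 3 libraries in each. Both groups had spent 6 days in a medium that promotes fat cell formation, with insulin, dexamethasone (a glucocorticoid), IBMX (which raises cyclic AMP) and ascorbic acid. No sample from before the medium was added is part of the comparison, and the labels do not say whether the libraries of a group came from separate embryos, lines or cultures, so p-values measure the spread between these libraries, which may be technical.

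The clock is a transcription loop that most cells run, fibroblasts included. BMAL1 (from Arntl) and CLOCK bind E-box sequences as a pair and switch on the Per, Cry, Nr1d and Dbp genes; PER and CRY proteins then shut the pair off, while the REV-ERB receptors (from Nr1d1 and Nr1d2) repress Arntl through RORE elements that ROR receptors activate. DBP acts through D-box elements, and BHLHE40 (DEC1) competes at E-boxes. Glucocorticoids and cyclic AMP reset this loop in cultured fibroblasts, and BMAL1 and REV-ERB alpha have both been linked to fat cell differentiation. Levels of most of these transcripts swing over a day. The labels give neither the hour of harvest nor the hour of the last medium change, and each culture was sampled once, so a different level and a different phase of the cycle cannot be told apart.

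The libraries held 26955708 to 38619711 counts. Actb, the deleted gene, had 1820 to 1904 counts per 1000000 (CPM, in libraries scaled by TMM, a trimmed mean of ratios) in WT and 10.4, 58.95 and 50.3 CPM in KO replicates 1, 2 and 3. KO replicate 1 stood apart from the other KO libraries: 4.97% of tested genes were at least 2-fold higher in it than in both others and 8.63% at least 2-fold lower, 13.6% in all, against 1.52% to 2.00% for each of the other 5 libraries within its own group. The 8 fibroblast markers summed to 2967 to 3708 CPM in WT and 6831 to 9366 CPM in KO, with 6 of them called higher and the other two not called. Of these markers Vim, Fn1 and Col1a1 were abundant, Thy1 was under 1 CPM in all libraries and Col1a2 was at 0.189 to 0.409 CPM in WT. Of 6 adipocyte markers Adipoq, Plin1 and Lep were under 1 CPM in all libraries, Lep at 0. The summed level of that list was 20.5 to 26.9 CPM in WT and 139.5, 36.5 and 39.5 CPM in KO replicates 1, 2 and 3, most of the first being Fabp4. Macrophage markers summed to 6.82 to 19.2 CPM in WT and to 14.7, 2.28 and 2.53 CPM in KO, with Ptprc, Adgre1 and Csf1r under 1 CPM throughout. The 4 smooth muscle markers summed to 70.3 to 94.8 CPM in WT and 4284 to 11760 CPM in KO, with 3 of them called higher. Most of the KO sum was the actin gene Acta2, at 11480, 6379 and 4120 CPM in KO replicates 1, 2 and 3. Myh11 was at 0.676 to 1.008 CPM over all libraries. Neuronal markers summed to 62.35 to 69.2 CPM in WT and 118.5 to 143.5 CPM in KO. Map2 made up most of that sum in both groups, and Rbfox3 was under 1 CPM in all libraries. Endothelial markers summed to at most 3.005 CPM in any library. Epithelial markers summed to 1.79 to 2.195 CPM in WT and 0.075 to 0.24 CPM in KO. The 1 epithelial marker tested, Epcam, was called lower, with 34, 48 and 45 counts in WT and 0 in every KO library. Of the neuronal markers 2 were called higher and of the adipocyte markers 1, and 0 macrophage or endothelial markers were called. The part of these cell type markers in the clock gene values was not tested.

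Of the 10 clock genes, 1 rose in KO cells (Bhlhe40), 1 fell (Cry1) and 8 were not called at an adjusted p under 0.05. That is 2 of 10, against 28.3% of all tested genes (13.8% higher and 14.5% lower), so the clock genes were not called more often than genes at large. The median log2 fold change of the 10, KO over WT, was 0.16, against 0.01 over all tested genes. WT and KO values did not overlap for 3 of the 10 (Cry1, Cry2 and Bhlhe40), against 49.6% of all tested genes. KO replicate 1 was the highest KO library for 8 of the genes and the lowest for the other two. Without that library 2 of the 10 were higher (Bhlhe40 and Per2) and 2 lower (Cry1 and Nr1d2), against 42.3% of all genes called in that fit.

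**Figure D1:**
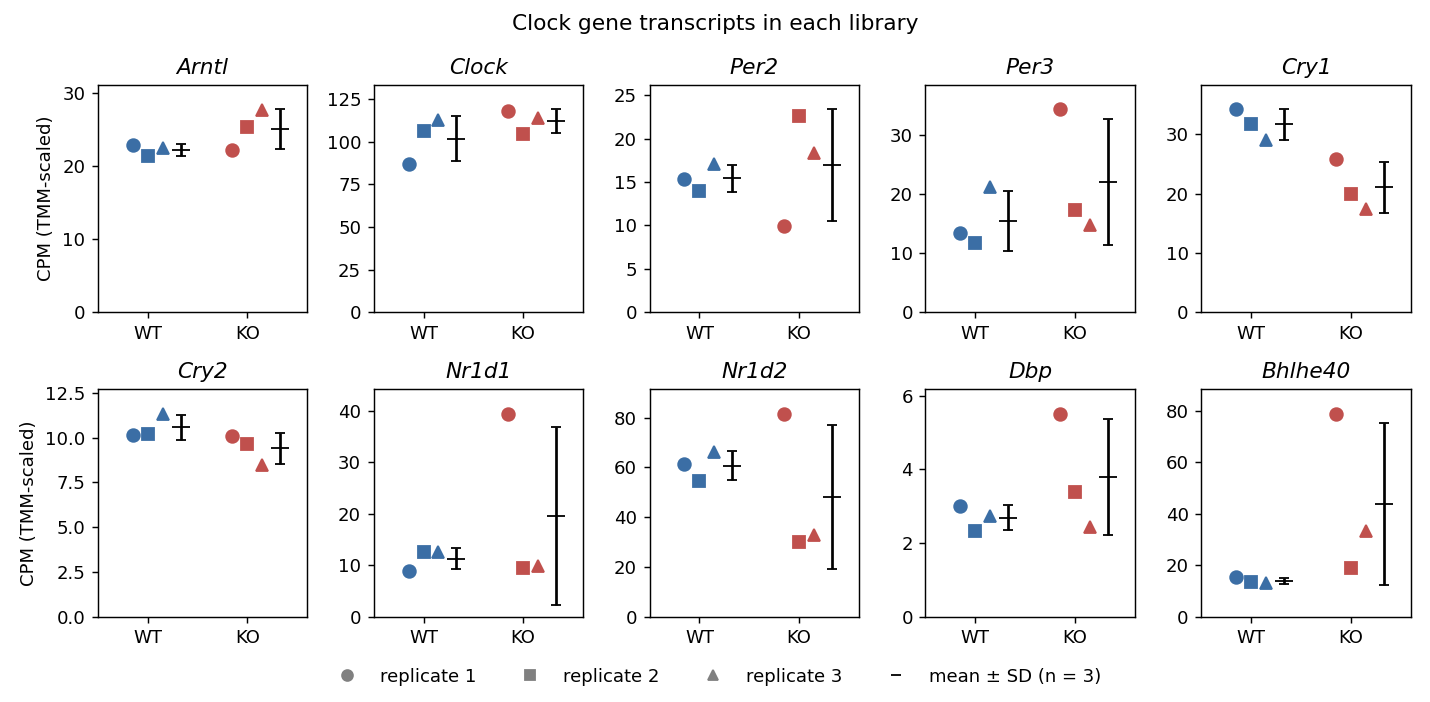
CPM of the 10 clock genes in each library (vertical axes start at 0), with WT in blue, KO in red, marker shape for the replicate number and bars for the mean ± SD of 3 libraries. WT libraries lie close together for most genes, while KO replicate 1 is the highest KO library for Per3, Nr1d1, Nr1d2, Dbp and Bhlhe40 and the lowest for Per2 and Arntl.

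Promoter windows from RefSeq (GRCm38.p6, 250 bases before to 50 after the annotated start) were available for 8 of the members, Per2 and Bhlhe40 being the others. Each was searched on both strands for the E-box CACGTG, the variant E-box CACGTT, the RORE core AGGTCA, the D-box (TTATGTAA or TTACGTAA), the cyclic AMP element TGACGTCA and the CArG box of serum response factor, none of which overlapped another in these members. Cry1 held an E-box, found in 7.15% of all 32851 windows, and a variant E-box, found in 4.68%. Nr1d1 and Cry2 also held the variant. Per3 held a pair of D-boxes, a motif in 1.06% of windows. Nr1d2, Clock and Arntl held the RORE core, which 16.3% of windows hold. No member's window held the cyclic AMP element or the CArG box, found in 1.79% and 1.63% of windows. A match is a description of letters and shows no binding. The stretches below, all upstream of the start and on the minus strand, show the element of each kind in a member whose values are given next, with the motifs in capitals.
Cry1, chr10:85185094-85185154: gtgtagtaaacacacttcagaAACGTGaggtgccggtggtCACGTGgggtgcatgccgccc
Nr1d1, chr11:98775378-98775452: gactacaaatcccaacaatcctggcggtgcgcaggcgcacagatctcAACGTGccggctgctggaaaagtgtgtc
Nr1d2, chr14:18239146-18239216: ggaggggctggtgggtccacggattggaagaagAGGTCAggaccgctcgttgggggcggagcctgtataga
Per3, chr4:151044795-151044890: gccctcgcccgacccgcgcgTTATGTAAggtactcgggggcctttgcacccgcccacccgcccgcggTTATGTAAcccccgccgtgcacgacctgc

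The activators of the loop were close between the genotypes. Arntl (ENSMUSG00000055116, chromosome 7, 113207465 to 113314126, GRCm38) was at 22.9, 21.4 and 22.4 CPM in WT replicates 1, 2 and 3 and at 22.2, 25.3 and 27.6 CPM in KO. KO replicate 1 lay inside the WT range and the other KO libraries just above it. Its log2 fold change was 0.17 (standard error 0.10, adjusted p = 0.374). Standard errors, here and below, are those of the difference in mean log2 CPM between the groups, not of the fitted value. Clock (ENSMUSG00000029238, chromosome 5, 76209868 to 76304792) was at 87.0, 106 and 112.4 CPM in WT and 117.8, 104.5 and 113.9 CPM in KO, with overlapping groups (log2 fold change 0.14, standard error 0.12, adjusted p = 0.449). For neither activator was a difference beyond the spread between replicates detected.

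Of the cryptochrome genes, Cry1 fell and Cry2 was not called. Cry1 encodes cryptochrome 1, a strong repressor of the BMAL1 and CLOCK pair (ENSMUSG00000020038, chromosome 10, 85131700 to 85185064; the promoter with both E-box forms above). It was at 34.2, 31.7 and 29.1 CPM in WT and 25.8, 19.9 and 17.4 CPM in KO, every KO library below every WT library. It fell by 0.59 on the log2 scale (standard error 0.18, adjusted p = 0.0394), 1.51-fold, from 31.6 ± 2.55 to 21.0 ± 4.33 CPM (SD, n = 3). The decrease was larger without KO replicate 1, at 0.76 log2 (adjusted p = 0.00152). The call was lost when any other single library was left out, with adjusted p from 0.0763 (without WT replicate 3) to 0.124 (without WT replicate 1). Its paralog Cry2 (ENSMUSG00000068742, chromosome 2, 92403646 to 92434043) was at 10.15, 10.2 and 11.4 CPM in WT and 10.1, 9.64 and 8.46 CPM in KO. The groups did not overlap, but the gap between them was small and the change was not called (log2 fold change -0.17, standard error 0.09, adjusted p = 0.472). Of Cry2 exon bases 4.67% are shared with D930015M05Rik on the opposite strand, a transcript with 2 to 10 counts a library.

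Per2 and Per3, period genes whose proteins act together with the cryptochromes, did not pass the test (Per1, a period gene outside the 10, is given with the other core-loop genes). Per2 (ENSMUSG00000055866, chromosome 1, 91415982 to 91459324) was at 15.3, 13.9 and 17.1 CPM in WT and 9.95, 22.6 and 18.3 CPM in KO. KO replicate 1 was below all WT libraries and KO replicates 2 and 3 above them. Over all 6 libraries its log2 fold change was 0.14 (standard error 0.36, adjusted p = 0.748). Without KO replicate 1 it was 0.41 (adjusted p = 0.0468), and without KO replicate 2 it was -0.12 (adjusted p = 0.775). Per3 (ENSMUSG00000028957, chromosome 4, 151003652 to 151044665; the promoter with the pair of D-boxes) went the other way in KO replicate 1. It was at 13.4, 11.7 and 21.2 CPM in WT and 34.3, 17.3 and 14.7 CPM in KO, where KO replicates 2 and 3 lay inside the WT range (log2 fold change 0.52, standard error 0.45, adjusted p = 0.320). Per3 had the widest WT spread of the 10 genes, 1.82-fold from lowest to highest. With KO replicate 1 left out the value was 0.05 (adjusted p = 0.876).

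The REV-ERB genes separated KO replicate 1 from the other KO libraries. Nr1d1 (ENSMUSG00000020889, chromosome 11, 98767932 to 98775333), which encodes REV-ERB alpha, was at 8.83, 12.5 and 12.5 CPM in WT and 39.4, 9.40 and 9.76 CPM in KO. KO replicate 1 was far above every other library and KO replicates 2 and 3 lay within the WT range. Its log2 fold change was 0.79 (standard error 0.70, adjusted p = 0.316) with all libraries and -0.23 (adjusted p = 0.3303) without KO replicate 1. Nr1d1 overlaps the thyroid hormone receptor gene Thra tail to tail, with 8.55% of its exon bases shared, and Thra was at 121.7 to 128.8 CPM in WT and 155, 163.5 and 141.8 CPM in KO. The highest Thra library was KO replicate 2 and the highest Nr1d1 library KO replicate 1. The part of Thra reads in the Nr1d1 counts was not tested. Nr1d2 (ENSMUSG00000021775, chromosome 14, 18204054 to 18239127), which encodes REV-ERB beta, was at 61.4, 54.5 and 66.2 CPM in WT and 81.65, 30.2 and 33.0 CPM in KO. Here KO replicate 1 was above and the other KO libraries well below all WT libraries. Nr1d2 was not called over all libraries (log2 fold change -0.33, standard error 0.47, adjusted p = 0.526) and was lower by 0.94 log2 without KO replicate 1 (log2 fold change -0.94, adjusted p = 0.000419).

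Of the output genes, Bhlhe40 rose and Dbp was not called. Bhlhe40 (ENSMUSG00000030103, chromosome 6, 108660629 to 108666925), an E-box repressor that also answers to growth factors, hypoxia and cyclic AMP, was at 15.3, 13.4 and 12.9 CPM in WT and 79.1, 18.7 and 33.5 CPM in KO. All KO libraries were above all WT libraries, by a margin that differed widely between them. It rose by 1.66 log2 (standard error 0.61, adjusted p = 0.0348), 3.15-fold, from 13.9 ± 1.30 to 43.8 ± 31.4 CPM (SD, n = 3). Without KO replicate 1 it was still higher, by 0.92 log2 (adjusted p = 0.0132). The call was lost without WT replicate 1, 2 or 3 (adjusted p = 0.09997, 0.114 and 0.119) and with limma-voom (1.37 log2, adjusted p = 0.0830). Dbp (ENSMUSG00000059824, chromosome 7, 45705088 to 45710203), a D-box activator and a direct readout of BMAL1 and CLOCK in liver, was the scarcest member. Its counts were 96, 74 and 81 in the WT libraries against 147, 114 and 90 in those of KO, which is 3.02, 2.33 and 2.74 CPM against 5.52, 3.38 and 2.45 CPM. KO replicate 1 was again the highest library and KO replicate 3 lay inside the WT range (log2 fold change 0.48, standard error 0.35, adjusted p = 0.316). Of Dbp exon bases 18% are shared with Sphk2 on the opposite strand, and Sphk2 was lowest in KO replicate 1, at 11.6 CPM against 17.8 to 18.6 CPM elsewhere. The library kit does not keep strand and the counting setting is not given, so Nr1d1 and Dbp counts are less certain than the rest. Bhlhe40 shares 2.51% of its exon bases with 0610040F04Rik, which had at most 2 counts a library, and Arntl 0.439% with Gm45355. Per3 lies against Camta1 on the same strand with 0 exon bases shared.

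**Figure D2:**
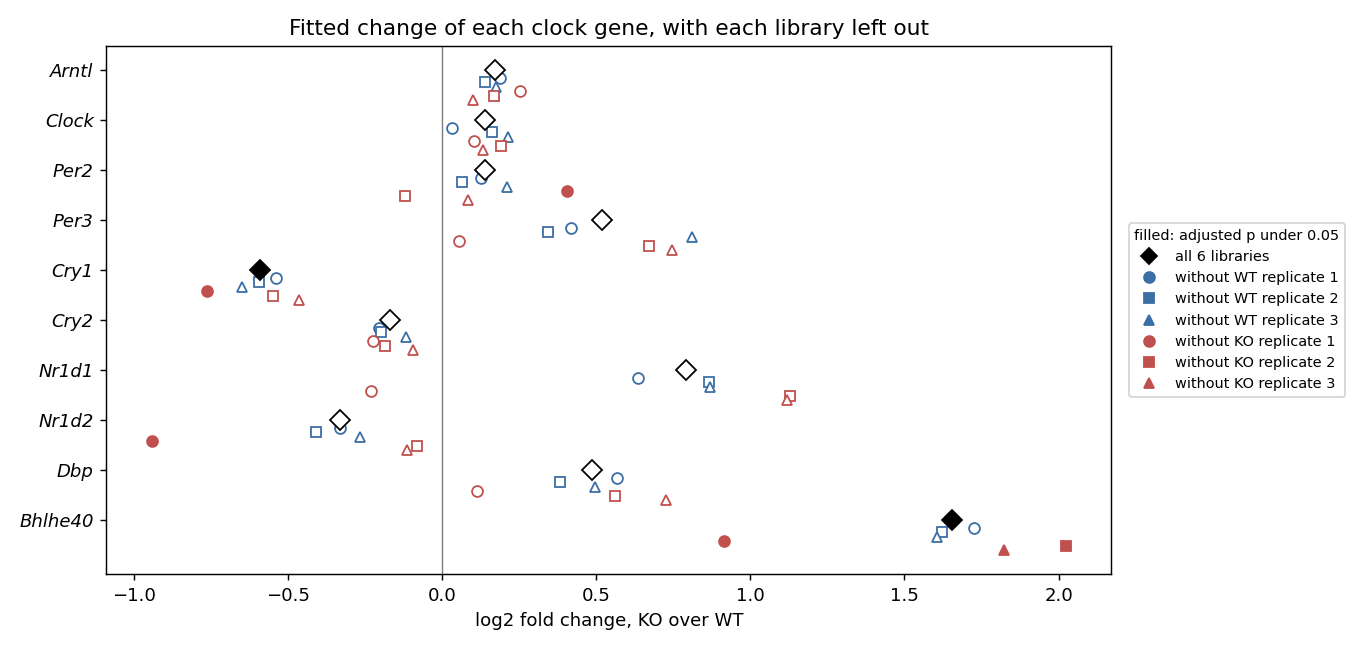
Log2 fold change (KO over WT) of each clock gene fitted with all 6 libraries (black diamonds) and with each library left out (blue, a WT library; red, a KO library); filled symbols passed an adjusted p of 0.05. Leaving out KO replicate 1 moves Nr1d1 from 0.79 to -0.23, Nr1d2 from -0.33 to -0.94 and Bhlhe40 from 1.66 to 0.92.

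KO replicate 1 thus had a clock profile of its own, which is a description of 1 library and has no replicate. Against the mean of KO replicates 2 and 3 it had 4.12-fold more Nr1d1, 3.03-fold more Bhlhe40, 2.59-fold more Nr1d2, 2.15-fold more Per3 and 1.895-fold more Dbp. Cry1 was 1.38-fold higher, Cry2 1.116-fold and Clock 1.08-fold. Arntl was 1.19-fold lower and Per2 2.05-fold lower. By the rule of at least 2-fold from both other KO libraries, 3 members were higher (Nr1d1, Nr1d2 and Bhlhe40) and 0 lower, against 4.97% and 8.63% of all tested genes; that rule was set after the values had been seen. In WT and in KO replicates 2 and 3 none of the members stood 2-fold from both partners. The same library had the high adipocyte marker sum and the lowest Actb given above. Of its counts 3.76% came from mitochondrial genes, near the 3.57% to 3.63% of WT, against 5.41% and 4.43% in KO replicates 2 and 3. The part of these marker, Actb and mitochondrial values in its clock profile was not tested.

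**Figure D3:**
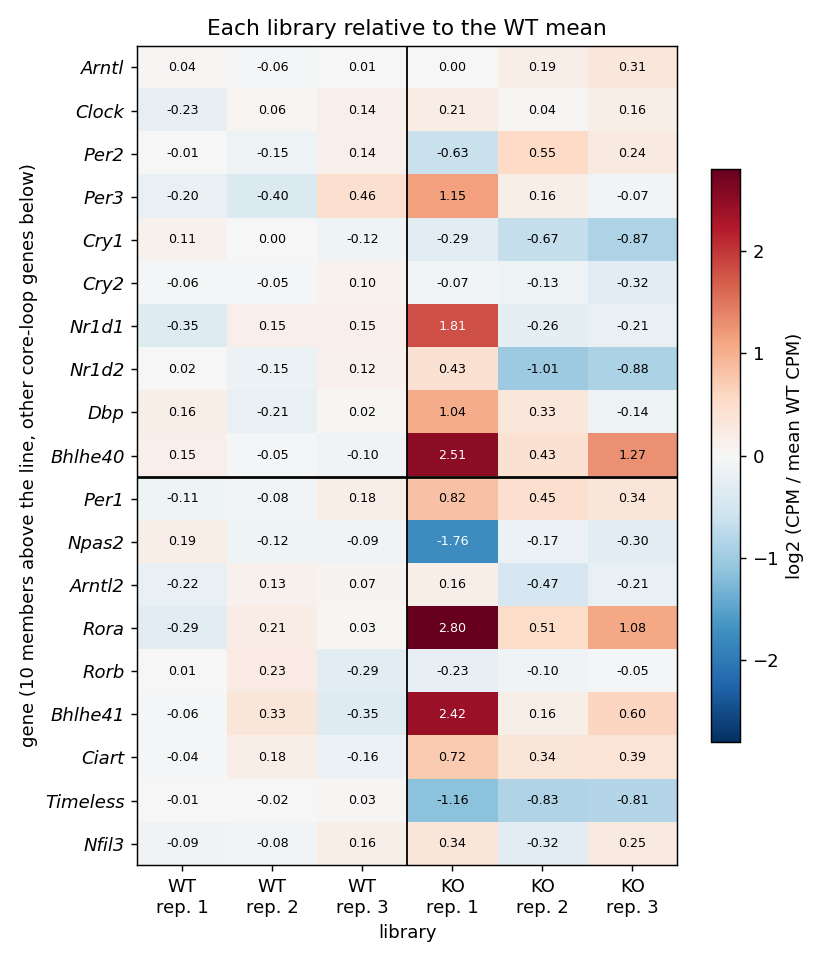
Level of each gene in each library as log2 of its CPM over the mean WT CPM (red higher, blue lower), with the 10 clock genes above the line and other core-loop genes below it. KO replicate 1 holds the highest values, such as 1.81 for Nr1d1, 2.51 for Bhlhe40 and 2.80 for Rora. It also holds the lowest, -1.76 for Npas2 and -1.16 for Timeless. Cry1, Cry2, Npas2, Rorb and Timeless are below 0 in all 3 KO libraries.

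Ratios of 2 genes within a library do not depend on how libraries are scaled. Counts per kilobase of exon were compared for 4 pairs, with 0.5 added to each count, by a two-sided exact permutation test, for which 3 libraries against 3 cannot give less than p = 0.1. The log2 ratio of Nr1d1 to Arntl, which rise at opposite times of the cycle in most tissues, was -0.08, 0.51 and 0.44 in WT, against 2.12, -0.14 and -0.21 for KO replicates 1, 2 and 3. KO replicate 1 was above and the other KO libraries below all WT libraries (mean difference 0.30, exact permutation p = 1.0). That of Dbp to Arntl was -1.59, -1.86 and -1.70 in WT and -0.67, -1.57 and -2.16 in KO (difference 0.25, exact permutation p = 0.7). That of Per2 to Arntl was -0.22, -0.26 and -0.03 in WT and -0.79, 0.20 and -0.24 in KO (difference -0.11, exact permutation p = 0.8). Only the ratio of Cry1 to Cry2 separated the genotypes in every library, at 2.67, 2.55 and 2.28 in WT and 2.27, 1.97 and 1.96 in KO. The lowest WT and the highest KO value were close, and the difference in means was -0.43 (exact permutation p = 0.1, the smallest possible; 0.4 adjusted over the 4 ratios).

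Per kilobase of annotated exon, the order of levels in WT was Nr1d2 (11.2 ± 1.09 CPM per kilobase, SD, n = 3), Cry1 (9.48 ± 0.763), Clock (7.42 ± 0.963), Nr1d1 (3.66 ± 0.682), Arntl (2.96 ± 0.105), Bhlhe40 (2.95 ± 0.275), Per2 (2.63 ± 0.268), Cry2 (1.67 ± 0.106), Per3 (1.605 ± 0.527) and Dbp (0.8996 ± 0.116). Of neighbours in this order, Nr1d2 and Cry1 overlapped, as did Nr1d1, Arntl, Bhlhe40 and Per2 in turn and Cry2 with Per3. In KO the highest mean was that of Bhlhe40 (9.30 ± 6.68 CPM per kilobase), which was sixth in WT, followed by Nr1d2 (8.92 ± 5.35) and Clock (8.16 ± 0.498). Cry1 had 6.30 ± 1.30 CPM per kilobase there, beside Nr1d1 at 6.35 ± 5.60. This KO order rests on KO replicate 1, in which Bhlhe40 was at 16.8, Nr1d2 at 15.1 and Nr1d1 at 12.8 CPM per kilobase. In KO replicates 2 and 3 Clock was the highest of the 10, at 7.61 and 8.30 CPM per kilobase, against 3.98 and 7.12 for Bhlhe40, 5.58 and 6.09 for Nr1d2 and 3.06 and 3.17 for Nr1d1. All exons of a gene were counted into its length, so a gene with a long rarely used exon appears lower than it is.

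Other genes of the pathway were read in the same fit, from 4 lists with 61 genes, all tested. Of these 13 rose, 6 fell and 42 were not called, 31.1% against the 28.3% of all tested genes. In the short list of 10 other core-loop genes 3 rose, 1 fell and 6 were not called, with a median log2 fold change of 0.31. Of all tested genes 13.8% rose and 14.5% fell, with a median log2 fold change of 0.01. Timeless, named for a fly clock gene and best known in mammals for its work at replication forks, was at 211.8 to 218.5 CPM in WT and 96.1, 120.1 and 121.7 CPM in KO, a fall by 0.93 log2 (standard error 0.11, adjusted p = 0.00178). Per1, the period gene that glucocorticoids and cyclic AMP induce directly, was at 61.5, 63.0 and 75.3 CPM in WT and 117.6, 90.8 and 84.3 CPM in KO. It rose by 0.55 log2 (standard error 0.17, adjusted p = 0.0353), a call lost without WT replicate 1, 2 or 3 (adjusted p = 0.126, 0.137 and 0.0540) or KO replicate 2 (0.0508), with the replicate number as a block (0.0858) and with library totals (0.116). Rora, an ROR receptor that activates RORE elements, named after its values were seen, was at 7.79, 11.03 and 9.72 CPM in WT and 66.2, 13.6 and 20.05 CPM in KO (log2 fold change 1.80, standard error 0.70, adjusted p = 0.0465). Without KO replicate 1 the value for Rora was 0.82 log2. Rora lost its call without WT replicate 1, 2 or 3 (adjusted p = 0.152, 0.114 and 0.134), with the replicate number as a block (0.115), with library totals (0.0566) and with limma-voom (0.115). Timeless kept its call with each library left out. Npas2, a substitute for CLOCK that was also named after its values were seen, was counted 51, 41 and 39 times in the WT libraries, and 11, 42 and 42 times in those of KO (log2 fold change -0.57, adjusted p = 0.339).

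**Figure D4:**
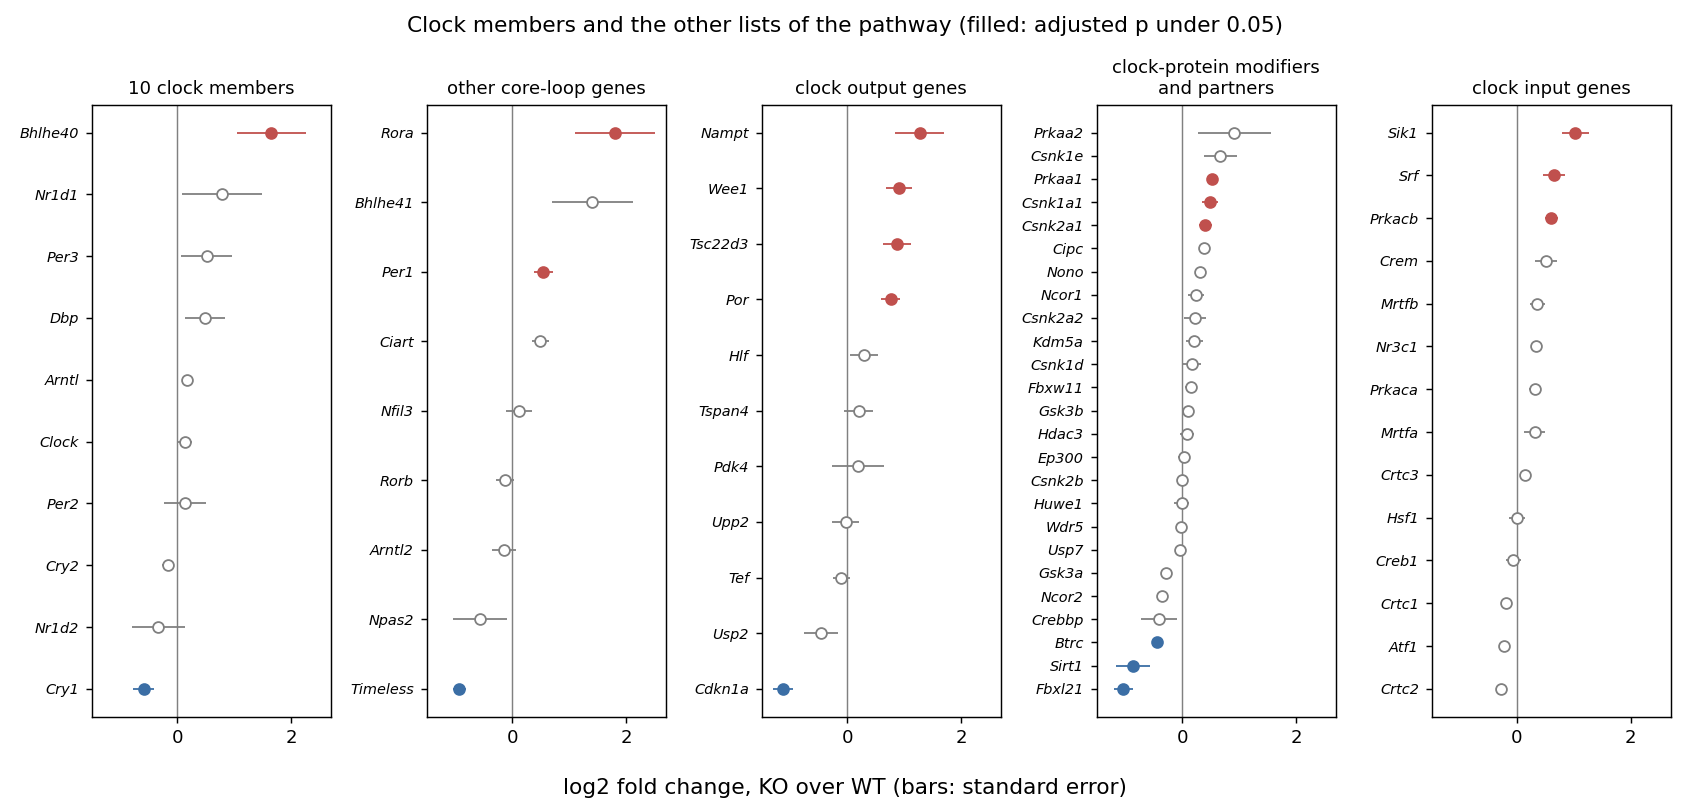
Log2 fold change (KO over WT) of the 10 clock genes and of genes of the 4 other lists, 1 gene a line. Bars are the standard error of the difference in mean log2 CPM, not of the fitted value. Red and blue filled symbols passed an adjusted p of 0.05 as higher and lower. Calls lie on both sides in all lists but that of clock input genes, where 3 of 14 rose and 0 fell. Of all tested genes 13.8% were higher and 14.5% lower.

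Among proteins that modify or assist clock proteins, 3 of 26 genes rose and 4 fell (median log2 fold change 0.10). That is 26.9% called, against 28.3% of all tested genes. Fbxl21, an F-box gene whose product stabilises cryptochromes in the nucleus, fell by 1.03 log2 (standard error 0.17, adjusted p = 0.0190) from 4.08 ± 0.77 to 1.99 ± 0.20 CPM (SD, n = 3). Fbxl21 lost its call without WT replicate 2 or 3 (adjusted p = 0.0620 and 0.0705) or KO replicate 3 (0.0576). Btrc, the F-box protein that recognises phosphorylated PER, and the deacetylase gene Sirt1, both named after their values were seen, also fell (by 0.44 and 0.85 log2, adjusted p = 0.0259 and 0.0323). Prkaa1, a catalytic subunit of the kinase AMPK that marks CRY1 for breakdown, rose by 0.53 log2 (standard error 0.05, adjusted p = 0.0071), from 100 ± 4.69 to 144 ± 5.29 CPM. Csnk1a1 and Csnk2a1, for casein kinase subunits, rose by 0.49 and 0.41 log2 (adjusted p = 0.0336 and 0.0473), and were also named after their values were seen. Btrc, Sirt1, Csnk1a1 and Csnk2a1 each lost the call in 4 or more of the 6 fits with a library left out, those without WT replicate 1 or 2 and without KO replicate 3 among them (adjusted p from 0.0525 to 0.168). Without KO replicate 1 this list had 7 higher and 6 lower genes, where all tested genes had 3075 and 3462. Without WT replicate 2 it had 1 and 1, where all tested genes had 1003 and 1295. With all 6 libraries all tested genes had 2074 and 2181.

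Of 11 genes listed as clock outputs 4 rose and 1 fell (median log2 fold change 0.20). That is 45.45% called in a short list, against 28.3% of all tested genes. Cdkn1a, the cell cycle inhibitor p21, fell by 1.13 log2 (standard error 0.18, adjusted p = 0.00228), from 286 ± 48.0 to 131 ± 15.8 CPM. Por, the electron donor of cytochrome P450 enzymes, rose by 0.77 log2 (standard error 0.16, adjusted p = 0.0092), from 142 ± 12.5 to 242 ± 42.8 CPM. Wee1, a kinase that delays mitosis and carries clock E-boxes in liver, rose by 0.91 log2 (standard error 0.23, adjusted p = 0.0151), from 19.2 ± 1.06 to 36.1 ± 10.3 CPM. Nampt, which makes NAD precursors, and the glucocorticoid target Tsc22d3, both named after their values were seen, were the other genes that rose (by 1.27 and 0.87 log2, adjusted p = 0.0286 and 0.0162). Wee1, Nampt and Tsc22d3 lost the call without WT replicate 1, 2 or 3 (adjusted p from 0.0537 to 0.104), and Por and Cdkn1a kept theirs with each library left out. Tef and Hlf, the genes of the other PAR-domain factors and named for that, were not called (log2 fold change -0.10 and 0.30, adjusted p = 0.633 and 0.318). Each of these genes also has regulators outside the clock. The number higher was 1 without WT replicate 1, 2 or 3 and 5 without KO replicate 1. Over all tested genes the number higher was 1225, 1003 and 1294 in those WT fits. It was 3075 without KO replicate 1 and 2074 with all 6 libraries.

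Of 14 genes that carry outside signals to the clock 3 rose and 0 fell (median log2 fold change 0.32). That is 21.4% called, against 28.3% of all tested genes (13.8% higher and 14.5% lower). At an adjusted p under 0.05 edgeR, DESeq2 and limma-voom all called 0 lower. At an unadjusted p under 0.05, read for edgeR only, 1 gene was lower, Crtc2 (log2 fold change -0.29, unadjusted p = 0.0493). Sik1, a kinase that cyclic AMP induces and that limits CREB coactivators, was at 43.5, 45.7 and 53.3 CPM in WT and 124.9, 72.8 and 92.2 CPM in KO, a rise of 1.02 log2 (standard error 0.24, adjusted p = 0.0086). Prkacb, a catalytic subunit of protein kinase A, rose by 0.61 log2 (standard error 0.11, adjusted p = 0.0103). Srf, the serum response factor whose coactivators are held back by free actin, rose by 0.65 log2 (standard error 0.19, adjusted p = 0.0262), from 80.9 ± 4.07 to 127 ± 29.9 CPM (SD, n = 3). Its own promoter window held a pair of CArG boxes, at 82 and 62 bases before the start. Srf lost its call without WT replicate 1, 2 or 3 (adjusted p = 0.0994, 0.0877 and 0.0791), with the replicate number as a block (0.0622) and with library totals (0.0604), and Prkacb without WT replicate 2 (0.0620). The glucocorticoid receptor gene Nr3c1, named for its part in the answer to dexamethasone, was not called, at 52.7 to 63.9 CPM in WT and 72.2 to 74.8 CPM in KO (log2 fold change 0.33, standard error 0.08, adjusted p = 0.0611). Fewer cells expressing a gene and less of its RNA in each cell cannot be told apart in these bulk samples.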

How the data were processed

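RNA sequencing counts from 3 WT and 3 KO libraries of day 6 MEFs were used. The authors deposited 1 table of whole-number counts per Ensembl gene for each library. Per the submitters' processing notes, TopHat2 2.1.0, HTSeq and DESeq2 were used with build GRCm38.p4; neither annotation release nor strand setting is given in the sources used here. From the deposited counts, edgeR 4.0.16 (R 4.3.3) was run with filterByExpr, TMM scaling and its quasi-likelihood test of KO against WT, and p-values were adjusted by Benjamini-Hochberg over all 15009 tested genes. Adjusted p-values in the text are from this test unless another tool is named. The test was checked on simulated data. These had the same spread for every gene and no library set apart, so the check does not cover a library like KO replicate 1.

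CPM used TMM-scaled library sizes. Log2 fold changes and p-values came from the fit. Standard errors came from the spread of log2 CPM among the 3 libraries of each group, so they belong to the difference in mean log2 CPM. A count of 3 corresponds to 0.0816 to 0.113 CPM, which covers counting error only. Gene positions and exon lengths came from GENCODE M21 (GRCm38), in which 46091 of the 46603 IDs matched. The alternatives were DESeq2 1.42.0, limma-voom (limma 3.58.1), other scalings and filters, the replicate number as a block, and each library left out. Named genes were all members and, from each other list, the 3 called genes with the smallest p, 1 called in the other direction and Per1; others are said to be chosen otherwise. Some genes of the lists are counted but not reported singly here, nor drawn. The members, lists and tests were chosen with earlier results of these data known.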

Additional observations from a re-analysis of the deposited data

How the results depend on the processing

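With library totals in place of TMM the median log2 fold change of all tested genes was -0.19 in place of 0.01, with 1351 genes higher and 3347 lower (2074 and 2181 with TMM). Under that scaling Arntl (-0.026), Clock (-0.068) and Per2 (-0.050) changed sign, none of them called. The lists then had 1 core-loop gene, 1 modifier and 2 input genes higher (3, 3 and 3 with TMM). Lower were 6 modifiers and 2 input genes (4 and 0 with TMM). Outputs stayed at 4 higher and 1 lower, and core-loop genes at 1 lower. With limma-voom 0 clock genes were higher, Bhlhe40 being at 1.37 log2 (unadjusted p = 0.0294, adjusted p = 0.0830). Over all tested genes limma-voom called 1997 higher and 2283 lower. With DESeq2 5 core-loop genes and 6 modifiers were higher and 5 modifiers lower. Over all tested genes DESeq2 called 2648 higher and 2591 lower, also more than edgeR. The cause of these differences was not tested.

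The labels do not say whether same-numbered libraries were paired. Deviations of same-numbered WT and KO libraries correlated at -0.101, 0.046 and -0.148, and 2 of 6 libraries correlated best with their own number. With so few libraries a group this cannot decide whether they were paired. With the replicate number as a block 1446 genes were higher and 1599 lower, among them Cry1 (-0.61 log2, adjusted p = 0.0476) and Bhlhe40 (1.41 log2, adjusted p = 0.0429), with 1 core-loop gene higher and 1 modifier higher and 2 lower.

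With each library left out in turn, 0 to 2 clock genes were higher and 0 to 2 lower, 1 to 3 core-loop genes higher, 1 to 5 outputs higher and 1 to 2 lower, 1 to 7 modifiers higher and 1 to 6 lower, and 1 to 4 input genes higher and 0 to 1 lower. All tested genes ranged from 1003 to 3075 higher and 1295 to 3462 lower. Log2 fold changes ranged from -0.12 to 0.41 for Per2, -0.76 to -0.47 for Cry1, -0.23 to 1.13 for Nr1d1, -0.94 to -0.081 for Nr1d2 and 0.92 to 2.02 for Bhlhe40. The difference in log2 ratio ranged from -0.46 to 0.70 for Nr1d1 to Arntl, -0.15 to 0.59 for Dbp to Arntl and -0.34 to 0.15 for Per2 to Arntl. Of these, the sign change of Nr1d1 and of all 3 ratios came without KO replicate 1, and that of Per2 without KO replicate 2. With motifs sought only before the start, 2 members in place of 3 held the RORE core. At 74 to 147 counts, Dbp is the member whose depth limits it most.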
